A study of Homo sapiens with 18 samples.

Results

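The comparison was between ADAR knockdown cells and control cells that had both received triptolide. It was defined by sample title and took 6 of the 18 libraries in the series, 3 from each line. ADAR encodes the enzyme that deaminates adenosine to inosine in double-stranded RNA, and the study's title names its role in transcriptome stability. The cells were ZR-75-1, an established human line of estrogen receptor-positive, luminal breast cancer. The first group was the knockdown line, labelled ADAR KD, given 100 nM triptolide for 16 h. The second was the control line, labelled SHC, given the same treatment. Both lines were grown in medium with 10% fetal bovine serum, plated 24 h earlier and kept in 1% serum during treatment. The knockdown and control lines with DMSO (3 libraries each) and without treatment (3 libraries each) were used only to set the line difference under triptolide beside that without it. Each line is a single line under its label, and how it was made, and whether it is 1 clone, is not given in the sources used here. A difference between the lines and an effect of lower ADAR therefore cannot be told apart in this design.

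Triptolide is a plant diterpenoid that binds the XPB subunit of the transcription factor TFIIH and stops initiation by RNA polymerase II. Most new mRNA synthesis ends under it, so the mRNA left after many hours depends strongly on how slowly each transcript decays. ADAR marks cellular double-stranded RNA as self, and its loss is known in other cells to set off sensors such as MDA5 and protein kinase R and the interferon-stimulated genes. These genes often carry an interferon-stimulated response element in the promoter.

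2 promoter windows of that gene class are printed because their genes are described below, IFI44L as the interferon-stimulated gene that passed the test under triptolide and RSAD2 as a gene whose line difference passed it without triptolide and not under it. They are RefSeq windows of GRCh38.p14 from 250 bases before to 50 bases after the annotated start, and capitals mark the letters GAAANNGAA on either strand, a core of the response element. The IFI44L window, on the plus strand at chr1:78620198-78620497, held 2 matches, and the RSAD2 window, on the plus strand at chr2:6877527-6877826, held 1. RSAD2 had 2 windows, and the one printed was picked by its matches, as no other window of the gene held more.
IFI44L: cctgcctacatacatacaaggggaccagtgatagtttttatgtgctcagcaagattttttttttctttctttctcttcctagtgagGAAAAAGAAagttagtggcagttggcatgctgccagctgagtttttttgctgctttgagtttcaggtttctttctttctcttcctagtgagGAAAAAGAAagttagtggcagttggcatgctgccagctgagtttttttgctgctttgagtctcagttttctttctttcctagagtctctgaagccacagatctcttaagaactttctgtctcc
RSAD2: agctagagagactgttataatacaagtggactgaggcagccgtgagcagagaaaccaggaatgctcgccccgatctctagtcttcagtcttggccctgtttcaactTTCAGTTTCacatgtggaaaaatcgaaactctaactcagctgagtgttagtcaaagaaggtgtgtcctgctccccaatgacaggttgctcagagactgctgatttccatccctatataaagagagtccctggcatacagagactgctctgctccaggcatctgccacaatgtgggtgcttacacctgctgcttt

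Counts in genes averaged 31.5e6 ± 4.03e6 in the knockdown triptolide libraries and 29e6 ± 1.57e6 in the control triptolide libraries (SD, n = 3 each). The 2 ribosomal RNAs of the mitochondrial genome took 47.1 to 49.1% of counts in knockdown and 42.7 to 55.2% in control triptolide libraries, against 20.2 to 37.1% in libraries without triptolide. Libraries numbered 3 stood apart from those numbered 1 and 2 in both lines: the summed level of 48 interferon-stimulated genes was 4833, 3680 and 1176 CPM in knockdown replicates 1, 2 and 3, and 4482, 2699 and 930 CPM in control replicates 1, 2 and 3. Luminal markers were present throughout, at a summed 3710 to 7013 CPM in knockdown and 3855 to 7568 CPM in control triptolide libraries over 14 genes. CPM are counts in a gene scaled to one common library total, here after TMM scaling. They are shares of the RNA counted and are not per length, so in these bulk samples fewer cells with a transcript and less of it per cell cannot be told apart.

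ADAR mRNA was lower in the knockdown triptolide library than in the control triptolide library of the same number in every pair. It stood at 110, 164 and 142 CPM in knockdown replicates 1, 2 and 3, against 352, 467 and 319 CPM in control replicates 1, 2 and 3. The groups did not overlap, and the knockdown level was 31.2, 35 and 44.4% of control. The log2 difference was -1.42 ± 0.18 (SE), with an adjusted p of 0.000192 by the quasi-likelihood test of edgeR with the replicate number as a block. Without the block it was -1.46 ± 0.34 with an adjusted p of 0.324. Replicate 2 was the highest in both lines. The gene lies on chromosome 1 at 154554171 to 154600489 of GRCh37. With DMSO the knockdown level was 64.1, 53.6 and 77.5% of control, and the log2 difference of -0.65 did not pass the test (adjusted p = 0.144). Untreated it was 74, 51 and 65.7% of control (log2 difference -0.67, adjusted p = 0.137). The difference under triptolide minus that with DMSO was -0.77 on the log2 scale with an adjusted p of 1 in edgeR, so the lines were not shown to differ more under triptolide.

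**Figure D1:**
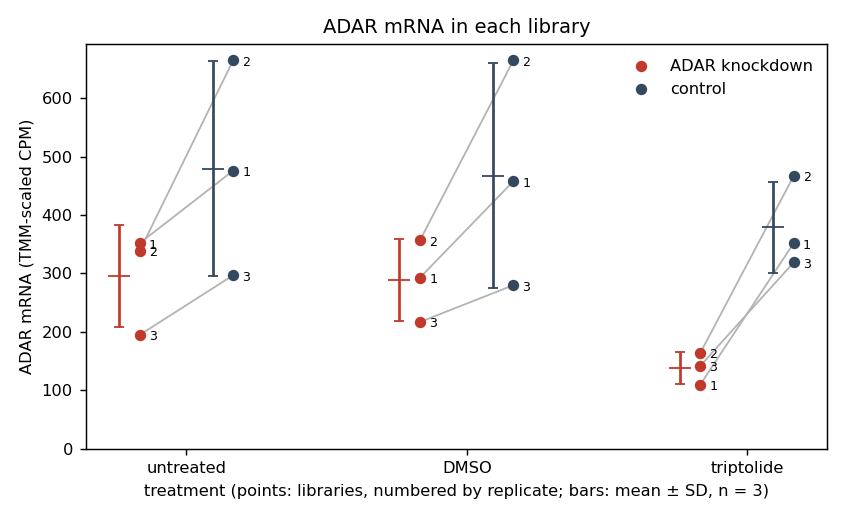
ADAR mRNA in CPM (vertical axis) in each library, by treatment (horizontal axis), with knockdown libraries in red left of control libraries in dark blue; grey lines join libraries of the same replicate number, and bars give the mean ± SD of 3. The 3 knockdown triptolide libraries lie between 110 and 164 CPM, below the control triptolide libraries at 319 to 467 CPM.

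The other members of the family were low. ADARB1, which encodes the editing enzyme ADAR2, averaged 7.92 ± 2.21 CPM in knockdown and 7.87 ± 1.03 CPM in control triptolide libraries (SD, n = 3 each). Its log2 difference of -0.02 ± 0.19 was near 0 and turned positive under several other settings. ADARB2, a brain-enriched relative with no known editing activity, had at most 0.18 CPM in knockdown and 0.381 CPM in control triptolide libraries. Of 14 tested genes for ADAR enzymes and double-stranded RNA-binding partners, ADAR alone passed the test, and the other 13, among them DHX9 and DICER1, had log2 differences between -1.10 (ADARB2) and 0.16 (ILF2).

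Across 21285 tested genes, 137 differed between knockdown and control under triptolide at an adjusted p under 0.05 in edgeR, 0.644% of those tested. Of these, 82 were higher (0.385%) and 55 were lower (0.258%) in knockdown cells. The called higher genes had a median log2 difference of 1.22 and the called lower genes of -1.22, where all tested genes had a median of -0.04. 54 of the 82 and 35 of the 55 differed by at least 2-fold. Libraries of both groups did not overlap for 62 of the 82 and 47 of the 55, beside 498 (2.34%) higher and 779 (3.66%) lower among all tested genes. At an unadjusted p under 0.05 there were 1770 genes (8.32%), 750 higher (3.52%) and 1020 lower (4.79%). Over all tested genes 9525 lay above 0 and 11760 below. By annotated type, 75 of the higher and 47 of the lower genes were protein coding, and 5 in each direction were long noncoding RNAs. The calls rest on the pairing of libraries: without the replicate block 14 genes passed (0.0658%), and all 14 were among the 137. These were GNAT3, HNRNPKP1, ITM2A and CD36 among the higher genes, and IL12RB1, RFX2, KYNU, NOX1, CRYAB, MTCL1, NPY1R, FAM90A27P and the unnamed IDs ENSG00000228809 and ENSG00000203632.3 among the lower ones. When each of the 6 triptolide libraries was left out in turn, 25 of the 82 higher and 25 of the 55 lower genes passed every time. Leaving out 1 library brought the count of calls to 74 (knockdown replicate 1), 74 (knockdown replicate 3) and 73 (control replicate 1), and without replicate 3 in every group it was 40.

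**Figure D2:**
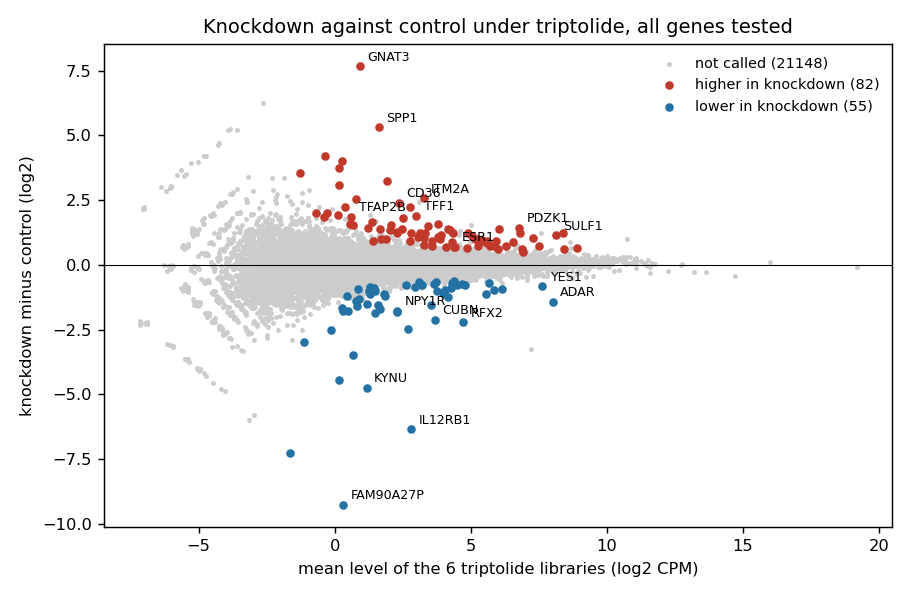
Log2 difference, knockdown minus control under triptolide (vertical axis), against the mean level of the 6 triptolide libraries in log2 CPM (horizontal axis), for the genes tested, with 82 called higher in red, 55 called lower in blue and the rest in grey. 5 genes without counts in these libraries are not drawn, and fitted values of genes at 0 in a group, such as FAM90A27P, are no bounds. Called genes spread over levels from below 1 CPM to the level of DMD.

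The neighbours GNAT3 and CD36 on chromosome 7q were both among the higher genes. CD36 encodes a scavenger receptor that takes up fatty acids and lipoproteins. It was at 8.42, 8.88 and 8.91 CPM in knockdown replicates 1, 2 and 3, against 1.14, 1.94 and 1.95 CPM in control replicates 1, 2 and 3. The groups were well apart, with a log2 difference of 2.41 ± 0.24 (SE) and an adjusted p of 8.27e-06 in edgeR. GNAT3, the taste G protein subunit gustducin, had 107, 99 and 57 counts in knockdown libraries and 0, 1 and 0 counts in control libraries. The sums of 263 and 1 counts give a ratio of 236 after scaling by library totals, with a 95% counting interval of 42 to 9360. The annotated spans of GNAT3 (80087951 to 80141380 of GRCh37, minus strand) and CD36 overlap on opposite strands. Whether counting used strand is not given in the sources used here, so reads from the overlap could have gone to either gene.

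SPP1, the secreted phosphoprotein osteopontin, was at 6.94, 10.7 and 0.465 CPM in knockdown replicates 1, 2 and 3, against 0.127, 0.194 and 0.1 CPM in control replicates 1, 2 and 3. Knockdown replicate 3 was low yet still above every control library. The log2 difference was 5.32 ± 0.45 with an adjusted p of 2.27e-06 in edgeR, and without replicate 3 in every group it was 5.74 with an adjusted p of 1.05e-05. ITM2A, an integral membrane protein, was at 14.5, 22.7 and 12.8 CPM in knockdown and 2.84, 4.02 and 1.6 CPM in control libraries. Its groups did not overlap, and it rose by a log2 difference of 2.58 ± 0.22 (adjusted p = 9.59e-07 in edgeR).

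The 14 higher genes of largest change with non-overlapping libraries also held genes of low level. CASQ2, the cardiac form of the calcium-binding protein calsequestrin, averaged 2.26 ± 1.03 CPM in knockdown and 0.141 ± 0.176 CPM in control libraries (SD, n = 3 each; log2 difference 4.0, adjusted p = 0.000306 in edgeR). CACNA2D1, an auxiliary subunit of voltage-gated calcium channels on chromosome 7q, averaged 2.02 ± 0.456 CPM in knockdown and 0.232 ± 0.194 CPM in control libraries (log2 difference 3.09, adjusted p = 0.00184). Both kept their call when any single triptolide library was left out. GUCY1A1, a subunit of the nitric oxide receptor guanylate cyclase, averaged 2.05 ± 1.05 CPM in knockdown and 0.162 ± 0.238 CPM in control libraries (log2 difference 3.76, adjusted p = 0.0164). IRAG1, a substrate of cGMP-dependent kinase, averaged 2.17 ± 0.689 CPM in knockdown and 0.453 ± 0.232 CPM in control libraries (log2 difference 2.24, adjusted p = 0.00771). The calls of GUCY1A1 and IRAG1 were less secure. GUCY1A1 lost its call without knockdown replicate 3 (adjusted p = 0.113), control replicate 1 (0.104) or control replicate 3 (0.0834), and IRAG1 without knockdown replicate 1 (0.0611) or control replicate 2 (0.0797). The other genes were SIRLNT, a long noncoding RNA, LIPF, gastric lipase, SLC25A48, a mitochondrial carrier, TFF1, TFAP2B and NBEA, a scaffold of vesicle traffic. LIPF lost its call without knockdown replicate 1 (0.196), knockdown replicate 3 (0.156), control replicate 1 (0.102) or control replicate 2 (0.214), and SLC25A48 without knockdown replicate 1 (0.245), knockdown replicate 3 (0.103), control replicate 1 (0.229) or control replicate 2 (0.196). NBEA lost it without any of the 6 libraries, with adjusted p-values of 0.0724 to 0.256.

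**Figure D3:**
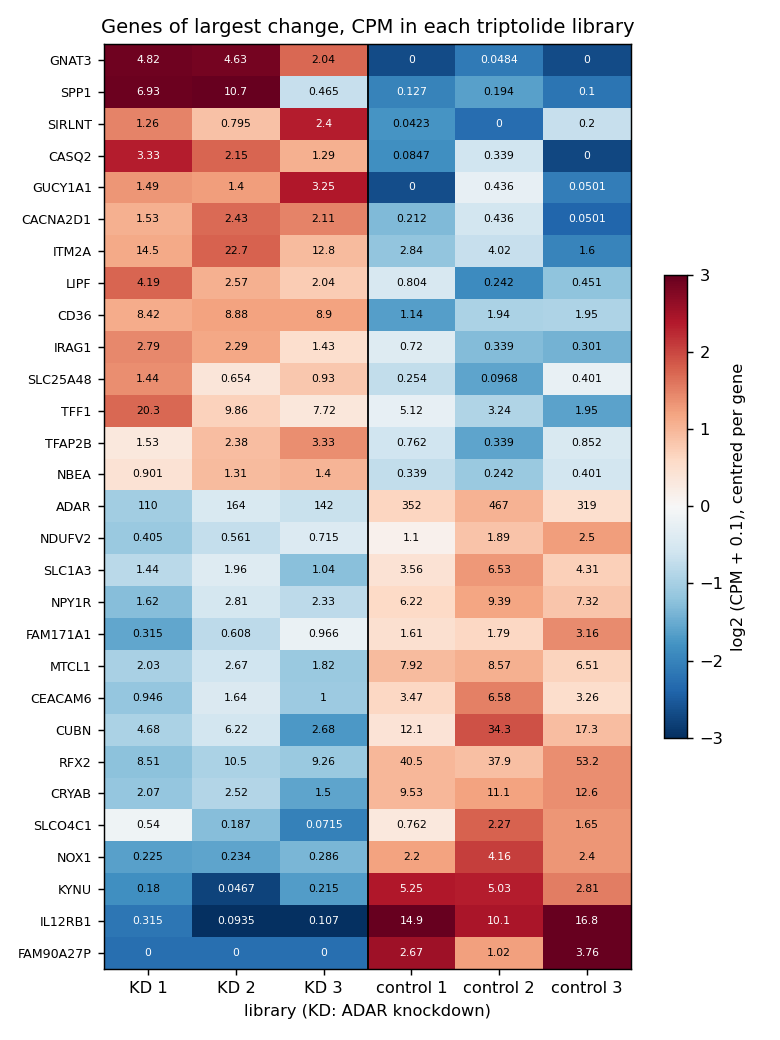
CPM in each triptolide library (printed in the cells; knockdown columns 1 to 3 left of control columns 1 to 3) of the 14 higher and 14 lower genes of largest change and of ADAR, with colour giving log2 (CPM + 0.1) centred per gene and held at 3 on either side. Knockdown and control columns differ for each gene by the way the genes were chosen, and knockdown replicate 3 of SPP1 is the one paler cell of its group, at 0.465 CPM.

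The 5 called higher genes of highest level were chosen by level, and those above by size of change. The sizes of the 2 sets are therefore not compared. CLU, the secreted chaperone clusterin, was at 378, 374 and 657 CPM in knockdown replicates 1, 2 and 3, against 165, 202 and 221 CPM in control replicates 1, 2 and 3. All knockdown libraries were above all control libraries, and the log2 difference was 1.22 ± 0.21 (adjusted p = 0.00432 in edgeR). SULF1, an extracellular sulfatase that trims heparan sulfate, was at 265, 462 and 431 CPM in knockdown and 116, 264 and 164 CPM in control libraries. The lowest knockdown library, at 265 CPM, was just above the highest control library, and the log2 difference was 1.14 ± 0.14 (adjusted p = 0.000147). DMD, dystrophin, averaged 579 ± 188 CPM in knockdown and 384 ± 195 CPM in control libraries, and ELAPOR1 averaged 418 ± 148 CPM in knockdown and 275 ± 115 CPM in control libraries. Their groups overlapped, and each call (adjusted p = 0.0472 and 0.0425) stood in 1 of 6 fits with a library left out, failing for both without knockdown replicate 1 (0.0821 and 0.182), knockdown replicate 3 (0.295 and 0.233), control replicate 1 (0.235 and 0.123) or control replicate 3 (0.217 and 0.122). DMD also failed without knockdown replicate 2 (0.0686) and ELAPOR1 without control replicate 2 (0.182). AP1B1, a subunit of the clathrin adaptor AP-1, averaged 229 ± 57.4 CPM in knockdown and 137 ± 27.4 CPM in control libraries (log2 difference 0.72, adjusted p = 0.0225). It lost its call without replicate 1 or 2 of either line, with adjusted p-values of 0.11 to 0.166.

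Further higher genes that kept their call with any single triptolide library left out are named here after their values were seen, for their levels. Without the replicate block the adjusted p-values of these 5 genes were 0.183 to 0.824. AZGP1, zinc-alpha-2-glycoprotein of secretory epithelia, was at 97.5, 136 and 53.5 CPM in knockdown and 28.3, 51.1 and 27.9 CPM in control libraries (log2 difference 1.38, adjusted p = 8.37e-05 in edgeR). MDK, the heparin-binding growth factor midkine, was at 155, 109 and 203 CPM in knockdown and 77.2, 36 and 88.7 CPM in control libraries (log2 difference 1.24, adjusted p = 0.00356). Each was higher in every pair, and the groups did not overlap. PRSS23, a secreted serine protease, was at 55.5, 37.4 and 59.3 CPM in knockdown and 25.8, 22.6 and 25.6 CPM in control libraries (log2 difference 1.01, adjusted p = 0.000625). CAVIN1, a coat protein of caveolae, was at 59.9, 37.1 and 45.5 CPM in knockdown and 28.4, 16.9 and 26 CPM in control libraries (log2 difference 1.00, adjusted p = 0.00245). These also separated without overlap. The chemokine CXCL14 was at 17.3, 14.6 and 15.2 CPM in knockdown and 4.36, 4.16 and 8.87 CPM in control libraries (log2 difference 1.5, adjusted p = 0.00128), and its annotated span overlaps that of SLC25A48 on the opposite strand.

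Among the lower genes IL12RB1 had the smallest p of the comparison. It encodes the receptor subunit shared by interleukins 12 and 23 and lies on chromosome 19p. It was at 0.315, 0.0935 and 0.107 CPM in knockdown replicates 1, 2 and 3, against 14.9, 10.1 and 16.8 CPM in control replicates 1, 2 and 3. Knockdown libraries were close to 0, and the log2 difference was -6.36 ± 0.32 (adjusted p = 1.17e-10 in edgeR). RFX2, a transcription factor of cilium genes on the same arm, was at 8.51, 10.5 and 9.26 CPM in knockdown and 40.5, 37.9 and 53.2 CPM in control libraries. Both groups were tight, and the log2 difference was -2.22 ± 0.16 (adjusted p = 6.5e-08).

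KYNU, the tryptophan-degrading enzyme kynureninase, was at 0.18, 0.0467 and 0.215 CPM in knockdown and 5.25, 5.03 and 2.81 CPM in control libraries. NOX1, an NADPH oxidase that makes superoxide, was at 0.225, 0.234 and 0.286 CPM in knockdown and 2.2, 4.16 and 2.4 CPM in control libraries. In neither gene did any knockdown library come near a control library. Their log2 differences were -4.75 ± 0.59 (adjusted p = 0.000123 in edgeR) and -3.47 ± 0.37 (adjusted p = 1.72e-05). CRYAB, the small heat shock protein alpha-B-crystallin, averaged 2.03 ± 0.512 CPM in knockdown and 11.1 ± 1.55 CPM in control libraries (log2 difference -2.48, adjusted p = 0.000114). SLC1A3, a glutamate transporter on chromosome 5p, averaged 1.48 ± 0.464 CPM in knockdown and 4.8 ± 1.55 CPM in control libraries (log2 difference -1.69, adjusted p = 0.000834). FAM171A1 averaged 0.63 ± 0.326 CPM in knockdown and 2.19 ± 0.846 CPM in control libraries (log2 difference -1.78, adjusted p = 0.00412). All of these kept their call when any single triptolide library was left out.

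2 lower genes had no counts at all in the knockdown triptolide libraries. FAM90A27P, of a family with near-identical copies, had 0 counts in knockdown and 159 counts in control libraries, at 2.67, 1.02 and 3.76 CPM in control replicates 1, 2 and 3. With 3 counts over the knockdown group taken as the floor, it was at least 59-fold lower in knockdown. In libraries without triptolide it was at or under 0.0522 CPM in both lines, so its difference was seen where control cells had received triptolide. The interaction of line and triptolide for it had an adjusted p of 1 in edgeR, and DESeq2 did not call its difference under triptolide. Reads of such a family can be split between copies, so its counts are uncertain. PCDH11X, a protocadherin with a near-identical copy on another chromosome, had 0 counts in knockdown and 42 counts in control libraries, at least 15.6-fold lower in knockdown. It was lower in knockdown cells without triptolide as well (adjusted p = 0.0253 with DMSO and 0.00172 untreated).

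SLCO4C1, an organic anion transporter, CEACAM6, a cell-surface adhesion protein, and NDUFV2, a complex I subunit, were the less secure of the 14 lower genes of largest change. SLCO4C1 averaged 0.266 ± 0.244 CPM in knockdown and 1.56 ± 0.76 CPM in control libraries (log2 difference -2.50, adjusted p = 0.0232 in edgeR). It was not called without replicate 2 of knockdown (0.139) or control (0.126), or replicate 3 of knockdown (0.19) or control (0.08). CEACAM6 averaged 1.19 ± 0.384 CPM in knockdown and 4.44 ± 1.86 CPM in control libraries (log2 difference -1.87, adjusted p = 0.00933), and was not called without knockdown replicate 2 (0.0887), control replicate 1 (0.0517) or control replicate 3 (0.0544). NDUFV2 averaged 0.56 ± 0.155 CPM in knockdown and 1.83 ± 0.704 CPM in control libraries (log2 difference -1.67, adjusted p = 0.0299), and kept its call only when control replicate 1 was the library left out. The other fits gave it adjusted p-values of up to 0.185, the highest without knockdown replicate 1.

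The line difference was already present without triptolide for many of these genes. Of the 82 higher genes, 36 were also called higher with DMSO and 35 untreated, 31 of them in both. Of the 55 lower genes, 27 were also called lower with DMSO and 29 untreated, 26 of them in both. DMSO-treated lines differed in 129 genes (0.606%) and untreated lines in 123 (0.578%). A further 42 higher and 25 lower genes were called under triptolide and in neither other treatment. For most of the 82 and 55 genes the difference without triptolide pointed the same way. With DMSO 1 of the 82 and 5 of the 55 had the opposite sign, all of them among the 42 and 25. The median log2 difference of the 82 was 1.22 under triptolide, 0.80 with DMSO and 0.82 untreated, and that of the 55 was -1.22, -0.75 and -0.97. These genes were chosen for their difference under triptolide, so the larger median there is fixed in part by the choice.

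**Figure D4:**
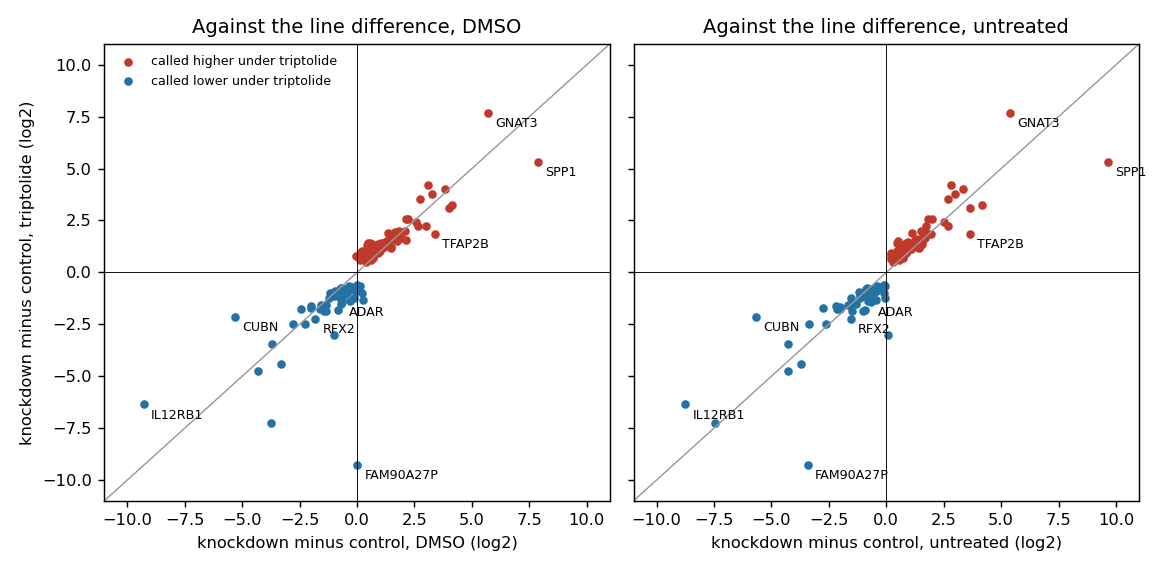
Log2 difference, knockdown minus control, under triptolide (vertical axes) against the same with DMSO (left) and untreated (right), for the 82 genes called higher (red) and the 55 called lower (blue) under triptolide, with the line of equal difference in grey. CUBN, IL12RB1, SPP1 and TFAP2B lie on the side of smaller differences under triptolide, at -2.13, -6.36, 5.32 and 1.86.

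The test of whether the line difference under triptolide itself departed from that with DMSO called 1 gene in edgeR (0.0047%), with 846 genes at an unadjusted p under 0.05. DESeq2 called 4, and edgeR without the block called 0. The gene was CUBN, which encodes the endocytic receptor cubilin, on chromosome 10p. Under triptolide it was at 4.68, 6.22 and 2.68 CPM in knockdown replicates 1, 2 and 3, against 12.1, 34.3 and 17.3 CPM in control replicates 1, 2 and 3. With DMSO it was at 0.0241, 0.635 and 0.227 CPM in knockdown and 6.41, 21.3 and 7.36 CPM in control libraries. Untreated it was at 0.141, 0.282 and 0.269 CPM in knockdown and 5.56, 26.1 and 9.3 CPM in control libraries. Knockdown libraries were lower than control libraries in each treatment, and nearest to them under triptolide. Without triptolide every knockdown library was under 1 CPM, so the size of the difference there rests on low counts. The log2 difference was -2.13 ± 0.29 under triptolide, -5.33 with DMSO and -5.69 untreated. The difference under triptolide minus that with DMSO was 3.20 ± 0.49 (adjusted p = 0.0431), and with untreated cells in place of DMSO it was 3.56 (adjusted p = 0.0187). It kept its call without any single knockdown triptolide library. Leaving out a control triptolide library gave adjusted p-values of 0.211 (replicate 1), 0.155 (replicate 2) and 0.0587 (replicate 3), and leaving out a DMSO library gave 0.0774 to 0.247.

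Other genes with a small unadjusted p in that test did not pass it. COL6A3, a collagen VI chain, averaged 2.72 ± 1.26 CPM in knockdown and 2.35 ± 0.407 CPM in control triptolide libraries (log2 difference 0.17, adjusted p = 0.955 in edgeR). With DMSO its log2 difference was -2.83, and the interaction of 3.00 had an adjusted p of 0.307. BBS10, a chaperonin-like protein of the cilium base, averaged 1.59 ± 0.367 CPM in knockdown and 3.2 ± 0.465 CPM in control triptolide libraries (log2 difference -1.0, adjusted p = 0.0129), where with DMSO the log2 difference was 0.23, and the interaction had an adjusted p of 0.422. Its call under triptolide was lost without knockdown replicate 1 (0.101), knockdown replicate 2 (0.0782) or control replicate 1 (0.102). For TLR6, a Toll-like receptor, the log2 difference was -0.10 under triptolide and 3.07 with DMSO (interaction adjusted p = 1). TFAP2B, an AP-2 transcription factor, was at 1.53, 2.38 and 3.33 CPM in knockdown and 0.762, 0.339 and 0.852 CPM in control triptolide libraries. With DMSO it was at 11.2, 16.6 and 16.2 CPM in knockdown and 1.27, 2.08 and 0.871 CPM in control libraries. It was higher in knockdown cells in both, with log2 differences of 1.86 under triptolide (adjusted p = 0.0173) and 3.38 with DMSO, and the interaction of -1.52 had an adjusted p of 1. Its triptolide call was lost without knockdown replicate 3 (0.164) or control replicate 2 (0.133).

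Of 48 interferon-stimulated genes tested under triptolide, 1 was higher (beside 0.385% of all genes) and 0 were lower in edgeR. At an unadjusted p under 0.05, 6 were higher and 0 lower, beside 3.52% and 4.79% of all genes. DESeq2 and edgeR without the block called 0, while edgeR without a low-count filter and edgeR on the triptolide libraries alone each called 5 higher. The summed level by library is given above, and the median log2 difference was 0.20 under triptolide, 0.35 with DMSO and 0.24 untreated, where the median of all genes was -0.04 under triptolide. In edgeR 3 of the 48 were called higher with DMSO (beside 0.357% of all genes) and 3 untreated (beside 0.301%). In both treatments 0 were lower. The test of the difference between triptolide and DMSO called 0 of the 48. The triptolide median rested on single libraries, falling to 0.0164 and 0.0357 when knockdown replicate 3 or control replicate 2 was left out, and standing at 0.322 and 0.433 when control replicate 1 or knockdown replicate 2 was. The gene that rose was IFI44L, at 12, 21.2 and 0.107 CPM in knockdown replicates 1, 2 and 3, against 1.99, 5.08 and 0.251 CPM in control replicates 1, 2 and 3. In replicate 3 both lines were near 0 and the order was turned round, so the groups overlapped. The log2 difference was 2.24 ± 0.46 (adjusted p = 0.0215 in edgeR). It was 2.37 without replicate 3 in every group (adjusted p = 0.0346), and the call was lost without knockdown replicate 1 (0.233), control replicate 1 (0.185) or control replicate 2 (0.277) and in DESeq2 (0.813). IFI44, its neighbour in name and family, averaged 14.6 ± 12.4 CPM in knockdown and 2.63 ± 2.47 CPM in control libraries and did not pass (log2 difference 2.41 ± 0.61, adjusted p = 0.0914). IFITM3, which blocks viral fusion, and IFI27 had log2 differences of 1.54 and 1.23 with adjusted p-values of 0.0845 and 0.141. ISG15 and MX1, at 0.25 and 0.41, were further from the threshold.

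RSAD2, which encodes the antiviral enzyme viperin, was at 3.65, 3.23 and 0.215 CPM in knockdown and 1.82, 2.13 and 0.401 CPM in control triptolide libraries. With DMSO it was at 15.5, 10.2 and 0.568 CPM in knockdown and 2.03, 2.81 and 0.0968 CPM in control libraries. The lines overlapped under triptolide, and its log2 difference was 0.59 ± 0.36 there (adjusted p = 0.728 in edgeR), 2.38 with DMSO (adjusted p = 0.000216) and 2.07 untreated (adjusted p = 0.00141). The test of the difference between triptolide and DMSO gave -1.79 with an adjusted p of 1. Among 11 sensors of double-stranded RNA and their partners 0 were called by edgeR (1 was higher without a low-count filter), 0 by DESeq2 and 0 at an unadjusted p under 0.05, with a median log2 difference of 0.13 that was -0.11 without knockdown replicate 3. OAS2 had 0.75 ± 0.37 (adjusted p = 0.606). The response element core was found in 36 of 56 promoter windows of the interferon-stimulated genes (64.3%), in 7 of 107 windows of the called higher genes (6.54%), in 3 of 67 windows of the called lower genes (4.48%) and in 1241 of 18632 windows of tested genes (6.66%). Windows were matched by symbol for 61 of 82 higher and 40 of 55 lower genes. The letters GCCNNNGGC, a core bound by AP-2 factors, were in 19 of 107 windows of higher genes (17.8%), 17 of 67 windows of lower genes (25.4%) and 5549 of 18632 windows of tested genes (29.8%).

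Of 30 estrogen receptor targets and luminal factors, 4 were higher and 1 was lower, with a median log2 difference of 0.06. Backgrounds over all genes were 0.385% higher and 0.258% lower. The higher count was 0 without the replicate block and without replicate 1 in every group, 2 without knockdown replicate 1, control replicate 1 or replicate 3 in every group, and 7 in the triptolide libraries alone, while 1 was lower each time. With 1 triptolide library left out the median ran from 0.0144 (knockdown replicate 3) to 0.189 (knockdown replicate 2). TFF1, a secreted trefoil peptide and standard estrogen target, was at 20.3, 9.86 and 7.72 CPM in knockdown and 5.12, 3.24 and 1.95 CPM in control triptolide libraries. Its groups did not overlap, and the log2 difference was 1.90 ± 0.29 (adjusted p = 0.00141 in edgeR). TFF3, the neighbouring trefoil gene on chromosome 21q, was at 24.7, 24.3 and 8.76 CPM in knockdown and 10.9, 10.5 and 5.06 CPM in control libraries. Replicate 3 was the lowest in both lines, and the log2 difference was 1.07 ± 0.19 (adjusted p = 0.0068). ESR1, the estrogen receptor itself, was at 30.7, 22.7 and 25.3 CPM in knockdown and 16.7, 16.7 and 14.9 CPM in control libraries, without overlap (log2 difference 0.69 ± 0.12, adjusted p = 0.00473). PDZK1, a scaffold of membrane transporters, was at 194, 91 and 194 CPM in knockdown and 56.6, 23.5 and 103 CPM in control libraries, with replicate 2 lowest in both lines (log2 difference 1.44 ± 0.29, adjusted p = 0.0211). NPY1R, a neuropeptide Y receptor, fell, at 1.62, 2.81 and 2.33 CPM in knockdown and 6.22, 9.39 and 7.32 CPM in control libraries (log2 difference -1.76 ± 0.20, adjusted p = 2.89e-05). TFF1 and NPY1R kept their calls with any triptolide library left out. Without knockdown replicate 1 the adjusted p-values of TFF3, ESR1 and PDZK1 were 0.0943, 0.0534 and 0.113. TFF3 also failed without control replicate 2 (0.0666), ESR1 without control replicate 1 (0.0549) and, with replicate 3 left out of every group, at 0.264, and PDZK1 without knockdown replicate 3 (0.109), control replicate 1 (0.143) or control replicate 2 (0.12). Other classical targets did not pass: GREB1 had 0.43 ± 0.20, PGR -0.01 ± 0.42 and CXCL12 1.29 ± 0.30 (adjusted p = 0.0528). With DMSO 1 gene of the list was higher and 1 was lower.

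The lists of short-lived mRNAs and of ribosomal protein mRNAs, which are known to be stable, had medians on different sides of 0 under triptolide. In both lists 0 genes passed the test in edgeR. Of 37 immediate early and short-lived mRNAs 0 were called in edgeR and in DESeq2 and 6 had an unadjusted p under 0.05, beside 8.32% of all genes. Of the short-lived mRNAs 32 had a log2 difference below 0, beside 11760 of all 21285 genes. Their median was -0.28 under triptolide, -0.04 with DMSO and -0.07 untreated. DUSP1, a phosphatase of MAP kinases, averaged 4.41 ± 0.33 CPM in knockdown and 6.81 ± 0.46 CPM in control libraries without overlap (log2 difference -0.61, adjusted p = 0.446). Of 478 ZNF-named zinc finger genes 0 were higher and 3 lower in edgeR, beside 0.385% and 0.258% of all genes. DESeq2 called 0 higher and 6 lower, and 2 higher and 70 lower had an unadjusted p under 0.05, beside 3.52% and 4.79% of all genes. In this list 385 lay below 0, beside 11760 of all 21285, and the median was -0.19, against 0.02 with DMSO and -0.04 untreated. ZNF622 averaged 39.6 ± 5.18 CPM in knockdown and 63.7 ± 9.51 CPM in control libraries, ZNF711 1.63 ± 0.979 CPM in knockdown and 3.33 ± 0.56 CPM in control, and ZNF131 15.3 ± 4.09 CPM in knockdown and 24.5 ± 7.14 CPM in control. Their adjusted p-values were 0.0241, 0.0301 and 0.0408, and each lost its call without knockdown replicate 1 (0.192, 0.184 and 0.248), knockdown replicate 3 (0.0897, 0.198 and 0.183) or control replicate 1 (0.119, 0.182 and 0.106). ZNF622 also lost it without knockdown replicate 2 (0.0596) or control replicate 2 (0.156), ZNF711 without control replicate 3 (0.0704) and ZNF131 without control replicate 2 (0.258). ZNF622 and ZNF131 lie on chromosome arm 5p, where 101 of 121 genes with at least 1 CPM lay below 0. Of 82 cytoplasmic ribosomal protein genes 0 were called in edgeR and in DESeq2, 11 had an unadjusted p under 0.05 (beside 8.32% of all genes), 76 lay above 0 (beside 9525 of all 21285), and the median was 0.18 under triptolide, 0.03 with DMSO and -0.02 untreated. RPL37A had 0.33 ± 0.13 (adjusted p = 0.447). Of 75 nuclear genes of oxidative phosphorylation 65 lay above 0, beside 9525 of all 21285 genes, with a median of 0.16. The 1 called member, NDUFV2, was lower, beside 0.258% of all genes. NDUFV2 lies on chromosome arm 18p and was also lower with DMSO (adjusted p = 0.0145 in edgeR) and untreated (0.000733). The medians of these lists kept their sign in every alternative run, but that of the short-lived mRNAs was -0.08 without knockdown replicate 1, that of the zinc finger genes was -0.09 without control replicate 2, and that of the oxidative phosphorylation genes was 0.05 without control replicate 2. TMM scaling sets where 0 lies for all of them, and the median of all genes was -0.04.

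The remaining lists held few calls or none in edgeR. Of 36 G2 and M phase genes 2 were lower, beside 0.258% of all genes, with a median of -0.17. Leaving out control replicate 3 gave a median of -0.0403, knockdown replicate 1 of -0.0728 and knockdown replicate 3 of -0.351. NDC80, a kinetochore protein on chromosome 18p, averaged 11.2 ± 3.34 CPM in knockdown and 21.9 ± 3.22 CPM in control libraries (log2 difference -0.99 ± 0.16, adjusted p = 0.00217), and was called with any triptolide library left out. TTK, the spindle checkpoint kinase, averaged 6.6 ± 2.37 CPM in knockdown and 10.4 ± 3.29 CPM in control libraries (log2 difference -0.66, adjusted p = 0.0307). It was called only when knockdown replicate 3 was the library left out, with adjusted p-values of 0.0658 to 0.233 in the other fits. The lists with 0 calls in edgeR were 30 S phase genes (median -0.01), 26 p53 targets (-0.13), 32 ATF4 targets of the integrated stress response (-0.07), 16 NF-kB targets (-0.22), 17 BCL2 family genes (-0.14), 54 replication-dependent histones (-0.27), 27 genes of RNA polymerase II, TFIIH and P-TEFb (0.00), 37 mRNA decay factors (-0.05) and 13 mRNAs of the mitochondrial genome (-0.01). They held between 0 (mitochondrial mRNAs) and 5 (histones) genes at an unadjusted p under 0.05, beside 8.32% of all genes. DESeq2 called 1 histone gene and 0 of the other genes. Without a low-count filter edgeR called 1 NF-kB target higher and 2 histone genes lower. With 1 triptolide library left out the medians ran from -0.508 to -0.101 (histones), -0.225 to -0.0605 (BCL2 family), -0.282 to -0.126 (NF-kB targets) and -0.229 to -0.107 (p53 targets). Medians of the S phase, ATF4, polymerase, decay and mitochondrial lists changed sign with the setting. BCL2, the antiapoptotic founder of its family, averaged 1.44 ± 0.5 CPM in knockdown and 2.52 ± 0.21 CPM in control libraries without overlap and did not pass (adjusted p = 0.379). Of 27 mRNAs known to be edited, 0 were called in edgeR and in DESeq2. At an unadjusted p under 0.05 in edgeR there were 2, beside 8.32% of all genes. Their median was 0.10 under triptolide and 0.13 with DMSO, and FLNA, filamin A, had 0.36 ± 0.15 (adjusted p = 0.515). Of 4 AP-2 genes, TFAP2B was called higher, while TFAP2A, TFAP2C and TFAP2E had log2 differences of -0.22, -0.43 and -0.96 and did not pass.

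Markers of other cell types were low. Of 7 tested fibroblast and stromal markers, 1 was higher, beside 0.385% of all genes. All 7 lay above 0, beside 9525 of all 21285 genes, and 4 of the 7 had a mean of at least 1 CPM. Their median log2 difference was 0.28 under triptolide, -0.18 with DMSO and 0.30 untreated. The summed level was 26.4 to 43.6 CPM in knockdown and 25.1 to 28.3 CPM in control triptolide libraries. The called marker was VIM, vimentin, at 4.14, 6.12 and 6.9 CPM in knockdown and 1.1, 4.07 and 2.21 CPM in control libraries. The groups were close but did not overlap (log2 difference 1.34 ± 0.27, adjusted p = 0.0168 in edgeR). Its call was lost without knockdown replicate 1 (0.106), knockdown replicate 3 (0.102), control replicate 1 (0.121) or control replicate 3 (0.1). Basal-like markers (8 tested, 0 called) summed to 133 to 161 CPM in knockdown and 99.2 to 134 CPM in control libraries, mostly CDH3. Leukocyte markers (6 tested, 0 called) summed to 10.2 to 20.7 CPM in knockdown and 10.5 to 16.6 CPM in control libraries, and endothelial markers (4 tested, 0 called) to 15.5 to 29.1 CPM in knockdown and 12.4 to 28.2 CPM in control libraries. The luminal list of 14 held 2 calls, TFF1 and ESR1, both higher, beside 0.385% of all genes. Of these 14 markers 10 lay below 0, beside 11760 of all 21285 genes, and the median log2 difference was -0.08 under triptolide. The part of other cells in the called differences was not tested.

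The lower genes were not spread evenly over the genome. Of 94 tested genes on chromosome arm 18p, 13 were called lower (13.8%, beside 0.258% of all genes) and 0 were called higher. At an unadjusted p under 0.05, 45 were lower and 0 higher, beside 4.79% and 3.52% of all genes. The called genes were THOC1, YES1, ENSG00000266602, METTL4, NDC80, CBX3P2, TGIF1, LINC00667, ZBTB14, EPB41L3, RAB12, MTCL1 and NDUFV2. Of the 60 genes of the arm with a mean of at least 1 CPM, 56 lay below 0, and their median log2 difference was -0.54 under triptolide, -0.46 with DMSO and -0.57 untreated. On arm 5p, 4 of 181 tested genes (2.21%) were lower (SLC1A3, ZNF622, ZNF131 and CCDC127) and 1, the chemokine CCL28, was higher. CCDC127 lost its call without any of 5 libraries, with adjusted p-values from 0.0684 (control replicate 3) to 0.194 (knockdown replicate 1), and CCL28 without knockdown replicate 1 (0.0875), knockdown replicate 3 (0.0904), control replicate 1 (0.113) or control replicate 3 (0.0538). Of 121 genes there with at least 1 CPM, 101 lay below 0, with a median of -0.33 under triptolide, -0.22 with DMSO and -0.31 untreated. Across 14392 tested genes with a mean of at least 1 CPM over the 18 libraries, 7733 lay below 0 and the median was -0.02. With the same cut, 18q and 5q had medians of -0.05 and -0.01. Arm Xq also held lower calls, 6 of 388 tested (1.55%), beside 4 higher (1.03%), and its median at that cut was 0.04. Lower levels along 18p and 5p were thus found in each treatment, and DNA copy number was not measured here.

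**Figure D5:**
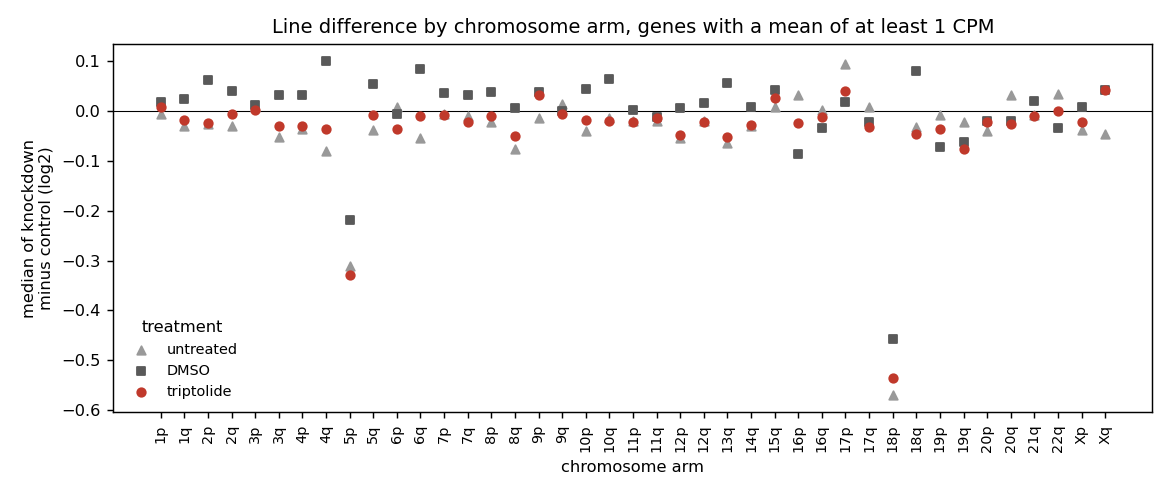
Median log2 difference, knockdown minus control (vertical axis), for each chromosome arm (horizontal axis) over genes with a mean of at least 1 CPM, with red circles for triptolide, dark squares for DMSO and grey triangles for untreated cells. The arms 18p and 5p lie below the rest in each treatment, at -0.54 and -0.33 under triptolide.

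The called genes of 18p changed by log2 differences between -1.84 and -0.75. YES1, a kinase of the Src family, was at 127, 139 and 163 CPM in knockdown and 199, 289 and 278 CPM in control triptolide libraries. EPB41L3, a membrane-cytoskeleton linker, was at 43.8, 49.6 and 52.3 CPM in knockdown and 76.4, 103 and 103 CPM in control libraries. Both separated without overlap, with log2 differences of -0.82 ± 0.12 (adjusted p = 0.00082 in edgeR) and -0.93 ± 0.17 (adjusted p = 0.00672). EPB41L3 fell just short without knockdown replicate 2 (0.0537), control replicate 1 (0.0516) or control replicate 3 (0.0577). MTCL1, a microtubule-crosslinking protein, was at 2.03, 2.67 and 1.82 CPM in knockdown and 7.92, 8.57 and 6.51 CPM in control libraries, the largest change of the called genes of the arm (log2 difference -1.84 ± 0.25, adjusted p = 0.000306). RAB12, a small GTPase of membrane traffic 66173 bases away, had a log2 difference of -1.23 ± 0.14 (adjusted p = 2.81e-05). The arm's smallest called change was that of THOC1, a subunit of the THO mRNA export complex, at -0.75 ± 0.15 (adjusted p = 0.0162). Its call held without control replicate 1 and was lost without each other triptolide library (0.0504 to 0.104). CBX3P2 held its call without control replicate 2 alone (0.0844 to 0.268 otherwise), ZBTB14 lost it without knockdown replicate 1 (0.0943), knockdown replicate 3 (0.0582), control replicate 1 (0.0526) or control replicate 2 (0.0614), and the remaining genes of the arm other than NDUFV2 kept theirs. Outside this arm, CENPX, a kinetochore and DNA repair protein on 17q, averaged 38.8 ± 8.63 CPM in knockdown and 78.6 ± 27.7 CPM in control libraries (log2 difference -0.97, adjusted p = 0.00143). RAP2C, a Ras-related GTPase on Xq, was at 33.5, 22.7 and 32.5 CPM in knockdown and 53.4, 62.9 and 77.1 CPM in control libraries (log2 difference -1.14, adjusted p = 0.00252). Both kept their calls with any triptolide library left out.

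Called genes also sat beside each other elsewhere. TFF1 and TFF3 lie 46872 bases apart, and CLU and SCARA3 on 8p lie 19168 bases apart, each pair higher in knockdown cells. SCARA3, a scavenger receptor, was at 39.8, 34.6 and 63.1 CPM in knockdown and 18.4, 18.6 and 24.6 CPM in control libraries (log2 difference 1.13 ± 0.17, adjusted p = 0.000834 in edgeR). TENM1, a teneurin of cell adhesion on Xq, was at 7.03, 11.8 and 7.37 CPM in knockdown and 2.24, 4.36 and 1.4 CPM in control libraries (log2 difference 1.80 ± 0.24, adjusted p = 0.000256). Neither overlapped between the lines. Chromosome 7q held 8 of the 82 higher genes among 642 tested (1.25%, beside 0.385% of all genes), among them CD36, GNAT3, CACNA2D1 and AZGP1. The share of 7q was not the largest: 10p held 3 of 198 (1.52%) and 8p 3 of 230 (1.3%).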

How the data were processed

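Total RNA was sequenced from 18 ZR-75-1 libraries in 6 groups of 3, with 500 ng of RNA per stranded library, per the labels' protocols. Values are the deposited unnormalized read counts, 1 per gene and library. Per the submitters' processing notes the authors used STAR 2.4.2a, HTSeq 0.6.1, DESeq2 1.4.5, R 3.1 and hg19. The strand setting and annotation release are not given in the sources used here. The 5 tally rows that name no gene entered neither library sizes nor tests. Of 60252 gene IDs, 58822 (97.6%) were matched to GENCODE release 44 on GRCh37.

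Counts were scaled by TMM and tested two-sided in edgeR 4.0.16 (glmQLFit and glmQLFTest, R 4.3.3), in 1 fit of all 18 libraries with group and replicate number as terms (10 residual degrees of freedom, 12 without the block). The package's low-count filter by group left 21285 genes, and a call is a Benjamini-Hochberg adjusted p under 0.05 over all of them. SE is the size of the log2 difference over the root of F. DESeq2 1.42.0, other scalings and filters, and fits with libraries left out were alternatives. The members, lists and tests were chosen with earlier results of these data known. Fits were tested on simulated data.

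Whether equal numbers pair libraries was checked on residuals from group means: the 3 same-numbered pairs of triptolide groups correlated across genes at r between 0.49 and 0.65, the 6 others between -0.4 and -0.072, and every library of 18 was closest to its own number. Labels call the replicates biological and do not say what a number shares. Replicates differed far beyond sampling noise (chi-square of at least 56.8 per degree of freedom), so none was a duplicate. Counting intervals (95%) and the floor of 3 counts over a group cover counting error only.

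Named genes are ADAR with its paralogs ADARB1 and ADARB2, up to 14 in each direction by size of change among called genes with at least 1 CPM and non-overlapping libraries, the 5 called in each direction of highest level, up to 8 in each direction by smallest p for the interaction, and called or leading members of the lists. Others are said to be chosen after their values were seen, or are called members of an arm or neighbour pair. Single values of some genes under this rule are not reported here.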

Additional observations from a re-analysis of the deposited data

Results flagged for a closer look

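The line difference of CUBN, which encodes cubilin, departed from that with DMSO when both lines had received triptolide. The difference of the 2 log2 differences was 3.204 by the interaction test of edgeR (adjusted p = 0.0431). Its log2 difference was -2.13 under triptolide and -5.33 with DMSO, and knockdown libraries were lower than control libraries in 3 of 3 pairs of each treatment. The interaction call was lost without the replicate block. In edgeR it was also lost without any single control triptolide library (adjusted p of 0.0587 to 0.211) or DMSO library (0.0774 to 0.247).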

How the results depend on the processing

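The count of 137 calls under triptolide (82 higher, 55 lower) was 14 without the replicate block (4 and 10), 248 without a low-count filter (169 and 79), 258 in a fit of the triptolide libraries alone (181 and 77) and 278 in DESeq2 with the block (172 and 106), which shared 14, 130, 127 and 133 genes with the 137. DESeq2 size factors in place of TMM gave 136, and leaving out mitochondrial genes 140. With libraries left out the count ran from 34 to 105: 73 to 105 without 1 triptolide library, and 34, 68 and 40 without replicate 1, 2 and 3 in every group. No scaling moved the median of all genes by over 0.1. For the interaction with DMSO the count of 1 was 0 without the block, 15 without a low-count filter and 4 in DESeq2, and 0 to 1 with libraries left out. The cause of these shifts was not tested. Without the replicate block the lines differed in 20 genes with DMSO and 21 untreated, and ADAR under triptolide was -1.46 and no longer called. ADAR ran from -1.73 to -1.24 with libraries left out.

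Among the genes reported, signs turned for 4 uncalled ones. With 1 library left out COL6A3 ran from -0.242 to 0.496, TLR6 from -0.434 to 0.324, ADARB1 from -0.108 to 0.11 and MT-CO3 from -0.38 to 0.0583. With a replicate number left out COL6A3 reached -0.272, TLR6 0.365, ADARB1 0.166 and MT-CO3 0.0406. ADARB1 was also 0.00704 without the block, 0.0245 without a filter and 0.0241 in triptolide libraries alone. For single named genes, 1875 values under alternatives kept their direction and side of the threshold, 797 fell below it and 8 passed it newly. With 3 libraries a group, low genes and small changes are at the limit of this depth.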

Other observations

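RN7SL4P, a copy of the 7SL RNA gene, averaged 35 CPM in knockdown and 264 CPM in control triptolide libraries and did not pass the edgeR test (log2 difference -3.24, adjusted p = 0.255). It was picked after its values were seen, and reads of such copies can be split between them.

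PIP, the prolactin-induced protein of secretory epithelia, averaged 2064 CPM in knockdown and 1364 CPM in control triptolide libraries (log2 difference 1.01, adjusted p = 0.135 in edgeR). It too was picked after its values were seen.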
